A study of Mus musculus with 20 samples.

Results

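The simple epithelial keratins Krt7, Krt8, Krt18, Krt19 and Krt23 and the adhesion genes Epcam and Cdh1 were followed through 20 mouse caecum tumours as a measure of their epithelial share. The 7 genes were fixed by name and found through the platform annotation. No measured value entered that rule, but the genes were chosen with earlier results of these data known. All 7 had a probe set with a single gene symbol, and all 7 were among the 15556 genes tested of 17097 genes measured. Each was represented by its probe set of highest mean over the 20 arrays, and each exceeded the detection floor, a log2 value of 4.16, on all 20. The tumours grew in C57BL/6J mice from 5 organoid lines (MTO), with 2 control and 2 galunisertib tumours for every line. Galunisertib blocks the kinase of TGFBR1, a receptor for TGF-beta. Lines MTO68 and MTO93 are parental lines of genotype LAKTP, MTO140 is a line of genotype LAKTP and type LiM, MTO54 is a parental line of genotype LAKP and MTO207 is a parental line of genotype LAKT. The labels do not spell out the genotype letters or LiM, and they mark the treated tumours LY, read here as galunisertib, which was given by gavage as 10 mg 2 times per day from day 11 to sacrifice at week 5. What the control mice were given and the ages of the mice are not in the labels.

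Tumours of MTO140 came from spheroids grown for 3 days and placed under the caecal serosa in 30% basement membrane extract, whereas those of the other 4 lines came from 1 mm3 pieces of a subcutaneous tumour attached to the caecum tip. Each genotype other than LAKTP was represented by 1 line, and the 4 tumours of a line were processed on 1 strip, so that line, strip, genotype and graft route cannot be told apart. RNA was taken from whole tumour fragments, which hold host cells beside the grafted epithelium. In such bulk samples, fewer epithelial cells and less RNA per epithelial cell cannot be told apart.

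Keratins of simple epithelia form filaments only as pairs of a type II chain, here Krt7 or Krt8, with a type I chain, here Krt18 or Krt19, and the pair of Krt8 and Krt18 is the one found throughout the single-layered lining of the gut. Krt23 is a type I keratin of more restricted expression in glandular epithelia. Cdh1 encodes E-cadherin, which joins neighbouring epithelial cells through catenins, and Epcam encodes a membrane glycoprotein of epithelial cells that stabilises claudins at their contacts. Fibroblasts, muscle, endothelium and leukocytes largely lack these transcripts, which is why they are used to follow epithelium in mixed tissue, although mesothelium also makes simple keratins.

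In the GRCm38.p6 RefSeq annotation all 7 are protein-coding genes. Cdh1 lies at chr8:106603350-106670247 and Epcam at chr17:87635979-87651127. The type I genes Krt23 (chr11:99477973-99493120) and Krt19 (chr11:100140810-100145926) lie in the keratin cluster of chromosome 11. The type II genes Krt7 (chr15:101412403-101427806) and Krt8 (chr15:101996711-102004342) lie in that of chromosome 15, together with Krt18 (chr15:102028216-102032026), the one type I gene found there.

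The promoters of 5 of the 7 genes were matched in the RefSeq promoter table, and the 250 bases before each annotated start are shown because repressors of epithelial genes of the Snail and Zeb families bind E-boxes of the form CACCTG. Capitals mark each CACCTG and its reverse complement CAGGTG. The windows are Krt7 at chr15:101412153-101412402 (plus strand), Krt8 at chr15:102004343-102004592 (minus strand), Krt18 at chr15:102027966-102028215 (plus strand), Krt23 at chr11:99493121-99493370 (minus strand) and Epcam at chr17:87635729-87635978 (plus strand).
Krt7: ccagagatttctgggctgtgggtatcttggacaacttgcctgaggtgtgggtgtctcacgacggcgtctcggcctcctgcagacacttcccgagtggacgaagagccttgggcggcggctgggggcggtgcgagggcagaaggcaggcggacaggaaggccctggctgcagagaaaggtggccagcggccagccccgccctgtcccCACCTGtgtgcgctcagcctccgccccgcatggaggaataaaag
Krt8: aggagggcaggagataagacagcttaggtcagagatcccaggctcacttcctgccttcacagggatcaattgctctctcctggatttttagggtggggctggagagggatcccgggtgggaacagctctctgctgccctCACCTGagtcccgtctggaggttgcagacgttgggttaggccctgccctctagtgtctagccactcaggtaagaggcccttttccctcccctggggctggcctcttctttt
Krt18: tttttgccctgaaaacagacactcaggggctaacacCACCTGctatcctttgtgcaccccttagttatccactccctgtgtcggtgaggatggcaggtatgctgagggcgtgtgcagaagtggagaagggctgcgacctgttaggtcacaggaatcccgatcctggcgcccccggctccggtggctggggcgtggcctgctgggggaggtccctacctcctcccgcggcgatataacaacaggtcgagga
Krt23: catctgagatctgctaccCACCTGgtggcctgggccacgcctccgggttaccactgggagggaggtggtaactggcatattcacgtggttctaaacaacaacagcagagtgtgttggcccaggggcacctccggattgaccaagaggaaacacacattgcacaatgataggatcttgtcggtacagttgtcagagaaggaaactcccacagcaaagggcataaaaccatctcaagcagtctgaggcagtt
Epcam: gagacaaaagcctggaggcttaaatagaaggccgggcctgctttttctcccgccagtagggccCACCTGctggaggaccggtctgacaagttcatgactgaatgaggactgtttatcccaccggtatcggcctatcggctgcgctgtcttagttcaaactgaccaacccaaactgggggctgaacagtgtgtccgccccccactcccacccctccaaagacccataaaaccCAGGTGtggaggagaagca
The E-box was found in 5 of these 5 windows, against 17.2% of all 32851 promoter windows of that length in the table. It lay 44 to 39 bases before the start in Krt7, 111 to 106 in Krt8, 214 to 209 in Krt18 and 232 to 227 in Krt23. Epcam held it at 187 to 182 bases and, as CAGGTG, at 19 to 14 bases before the start. The palindrome ACCGGT, which is contained in the site of Grainyhead-like factors and shares no base with the E-boxes, was found in Epcam at 174 to 169 and 131 to 126 bases before the start and in 1.86% of all windows. Both motifs were searched on both strands and chosen with these genes in view, and a match is a run of letters, not evidence of binding.

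Array medians ranged from 4.93 to 5.12 on the log2 scale and the standard deviation (SD) of the values of an array from 1.46 to 1.83, and no pair of arrays was identical. The number of arrays limits precision here, since a group holds 2 tumours and its spread was estimated from all 10 groups together. MTO68 control replicate 2 stood apart, with an array SD of 1.47 against 1.76 to 1.82 for the other tumours of that line, and all 7 genes had their lowest MTO68 value in it. Results that rest on this tumour are given with and without it where both were computed. Genes of gut epithelium were measured in the tumours, with Cdh17, an intestinal cadherin, at a median of 9.09 and Krt20, a keratin of differentiated gut epithelium, at 9.42.

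Whether galunisertib changed the epithelial share of the tumours was asked first over all 5 lines, with treated and control tumours compared within each line. All 7 genes had a higher mean in the treated tumours, with a median log2 difference of 0.21 against 0.0012 over all genes tested, although Krt7 turned to -0.02 and the median to 0.10 after quantile normalization of the deposited values. With the SD of each array's values as a covariate the median was 0.11. Of all genes tested, 50.3% were higher in treated tumours. None of the 7 passed an adjusted p of 0.05 in limma, and neither did any other gene (0 of 15556, or 0.0%), with 1238 genes and 1 of the 7, Krt8, at an unadjusted p under 0.05. An exact permutation test of treatment within lines, adjusted over all genes, called 0 genes. Its smallest possible p was 0.000257, so it could call a gene only if many genes came near that value together. Krt8 and Krt18 were higher in treated tumours in 5 of 5 lines, as were 3.75% of all genes.

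**Figure D1:**
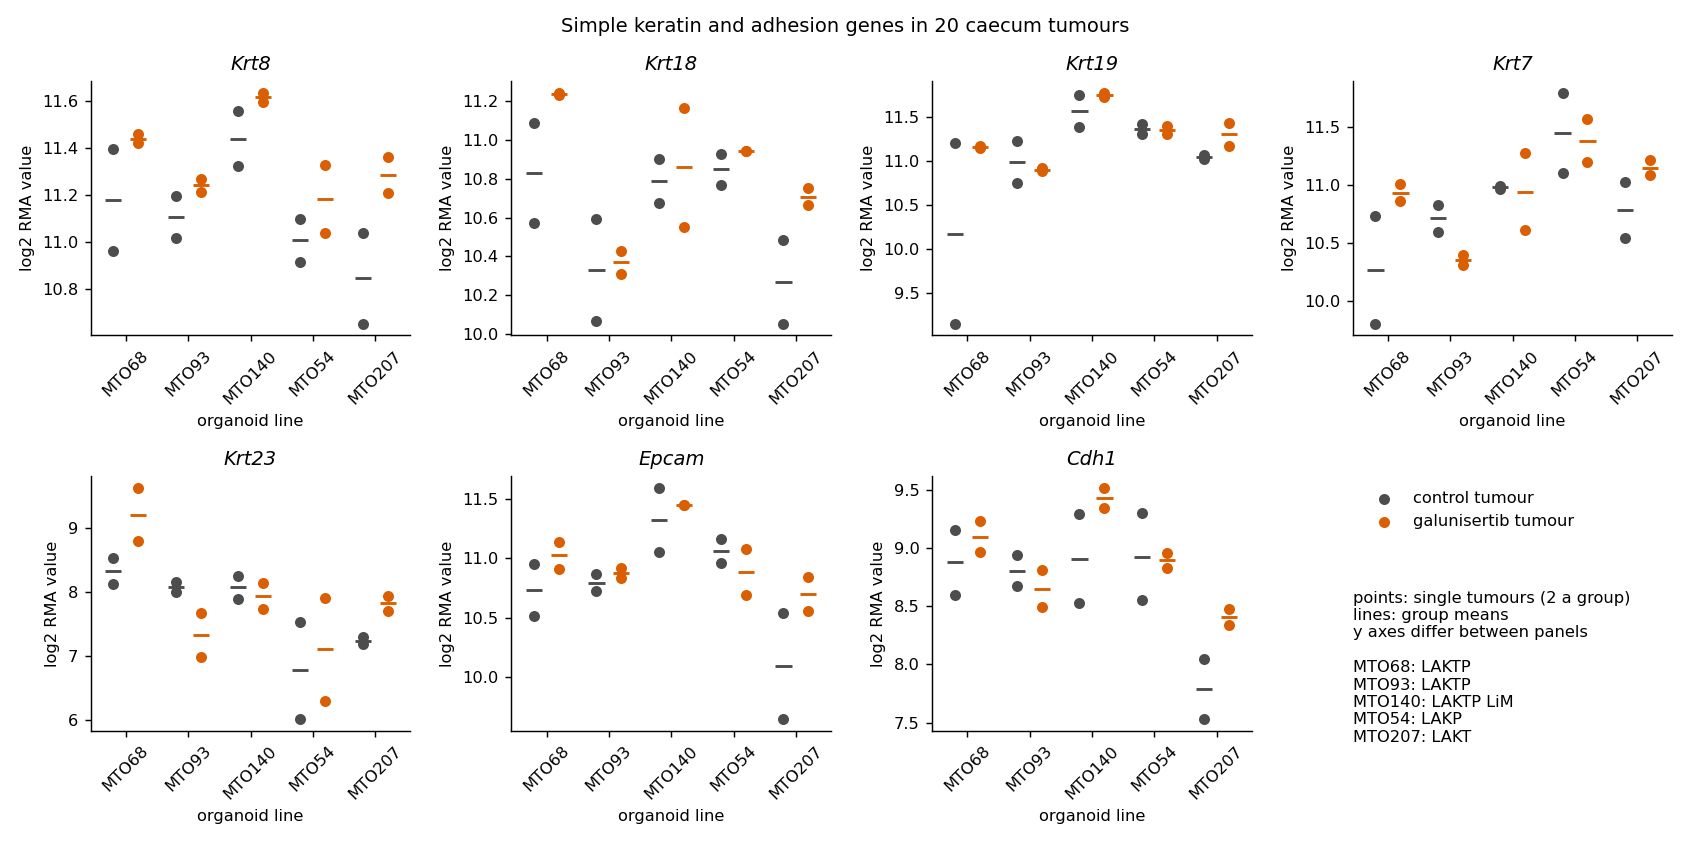
Log2 values of the 7 genes in each tumour, by organoid line, with control tumours in grey, galunisertib tumours in orange and short lines at the group means of 2 tumours; the y axes differ between panels. Krt19 in MTO68 control replicate 2 sits at 9.15, below every other tumour, and the 2 MTO207 control tumours are the lowest of that line for Cdh1.

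Among the type II keratins, Krt8 had the smallest standard error of the treatment difference. In MTO68, Krt8 was 11.40 and 10.96 in control and 11.42 and 11.46 in treated tumours. In MTO93, Krt8 was 11.02 and 11.20 in control and 11.27 and 11.21 in treated tumours. In MTO140, Krt8 was 11.55 and 11.32 in control and 11.59 and 11.63 in treated tumours. Treated tumours were the highest in each of these LAKTP lines, by narrow margins over the nearer control. In MTO54, Krt8 was 10.91 and 11.10 in control and 11.33 and 11.04 in treated tumours. In MTO207, Krt8 was 10.65 and 11.04 in control and 11.36 and 11.21 in treated tumours. Control and treated tumours overlapped in MTO54 and not in MTO207. Taken over all 5 lines, the Krt8 difference was 0.24 (SE 0.08, 95% interval 0.08 to 0.40), with a limma adjusted p of 0.373 and a two-sided p of 0.00206 by exact permutation (adjusted over all genes 0.283, smallest possible 0.000257). It was 0.14 after quantile normalization, and a second Krt8 probe set gave 0.24 and followed the first with r = 0.97 over the 20 arrays.

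Krt7, the type II keratin of ducts and of many glandular tumours, differed between lines in the sign of its treatment difference. In MTO68, Krt7 was 10.74 and 9.81 in control and 11.01 and 10.87 in treated tumours. In MTO93, Krt7 was 10.83 and 10.60 in control and 10.32 and 10.40 in treated tumours. In MTO140, Krt7 was 11.00 and 10.97 in control and 11.28 and 10.61 in treated tumours. Treated tumours were thus above both controls in MTO68, below both in MTO93 and on either side of them in MTO140. In MTO54, Krt7 was 11.80 and 11.11 in control and 11.20 and 11.57 in treated tumours. In MTO207, Krt7 was 11.03 and 10.55 in control and 11.22 and 11.09 in treated tumours. The MTO54 groups overlapped and the MTO207 groups did not. Over the 5 lines the Krt7 difference was 0.11 (SE 0.15, 95% interval -0.20 to 0.42, limma adjusted p = 0.812), and it was 0.0063 without MTO68 control replicate 2.

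Krt18, the usual type I partner of Krt8, was higher on average in treated tumours of every line, by between 0.04 in MTO93 and 0.44 in MTO207. In MTO68, Krt18 was 11.09 and 10.57 in control and 11.23 and 11.25 in treated tumours. In MTO93, Krt18 was 10.59 and 10.07 in control and 10.43 and 10.31 in treated tumours. In MTO140, Krt18 was 10.90 and 10.68 in control and 11.17 and 10.55 in treated tumours. The groups were apart in MTO68 and overlapped in MTO93 and MTO140. In MTO54, Krt18 was 10.93 and 10.77 in control and 10.94 and 10.95 in treated tumours. In MTO207, Krt18 was 10.48 and 10.05 in control and 10.67 and 10.75 in treated tumours. Treated tumours lay above controls in both, but in MTO54 the margin was hardly visible. The Krt18 difference over the 5 lines was 0.21 (SE 0.10, 95% interval -0.01 to 0.43, limma adjusted p = 0.644, exact permutation p = 0.0615).

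Krt19, a short type I keratin of simple and ductal epithelia, had its treatment difference set largely by 1 tumour. In MTO68, Krt19 was 11.19 and 9.15 in control and 11.16 and 11.14 in treated tumours. In MTO93, Krt19 was 10.75 and 11.22 in control and 10.88 and 10.92 in treated tumours. In MTO140, Krt19 was 11.74 and 11.39 in control and 11.77 and 11.72 in treated tumours. Control and treated tumours overlapped in each of these lines, and the wide spread in MTO68 lay in its controls. In MTO54, Krt19 was 11.42 and 11.30 in control and 11.39 and 11.30 in treated tumours. In MTO207, Krt19 was 11.02 and 11.06 in control and 11.43 and 11.17 in treated tumours. The MTO54 tumours were nearly equal, and the MTO207 groups did not overlap. Over the 5 lines the Krt19 difference was 0.26 (SE 0.19, 95% interval -0.13 to 0.66, limma adjusted p = 0.710), and it was 0.07 (SE 0.07) without MTO68 control replicate 2.

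Krt23, the type I keratin of more restricted expression, varied most among the 7, with a range of 1.83 between line means. In MTO68, Krt23 was 8.53 and 8.12 in control and 9.62 and 8.79 in treated tumours. In MTO93, Krt23 was 7.99 and 8.15 in control and 6.99 and 7.67 in treated tumours. In MTO140, Krt23 was 8.25 and 7.89 in control and 8.14 and 7.73 in treated tumours. The treated tumours were the higher in MTO68 and the lower in MTO93, without overlap in either, and the MTO140 groups overlapped. In MTO54, Krt23 was 6.01 and 7.54 in control and 7.90 and 6.30 in treated tumours. In MTO207, Krt23 was 7.18 and 7.30 in control and 7.70 and 7.94 in treated tumours. The replicates of MTO54 spread widely within each group, and the MTO207 groups were apart. Over the 5 lines the Krt23 difference was 0.18 (SE 0.24, 95% interval -0.33 to 0.69, limma adjusted p = 0.814), and it turned to -0.10 with array weights, which gave MTO68 control replicate 2 a weight of 0.0896.

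Epcam, the epithelial cell adhesion molecule, had its largest treatment difference in MTO207. In MTO68, Epcam was 10.95 and 10.51 in control and 10.91 and 11.14 in treated tumours. In MTO93, Epcam was 10.72 and 10.87 in control and 10.84 and 10.92 in treated tumours. In MTO140, Epcam was 11.59 and 11.05 in control and 11.45 and 11.45 in treated tumours. Groups overlapped in these 3 lines. In MTO54, Epcam was 10.96 and 11.16 in control and 11.08 and 10.70 in treated tumours. In MTO207, Epcam was 9.65 and 10.54 in control and 10.84 and 10.56 in treated tumours. The MTO207 control at 9.65 was the lowest Epcam value of the 20 tumours, while the other control of that line nearly matched a treated one. The Epcam difference over the 5 lines was 0.19 (SE 0.12, 95% interval -0.07 to 0.44, limma adjusted p = 0.692), and it was 0.09 without MTO207 control replicate 1. A second Epcam probe set gave 0.25 and followed the first with r = 0.93 over the 20 arrays.

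Cdh1, which encodes E-cadherin, had its lowest values in the MTO207 control tumours. In MTO68, Cdh1 was 9.16 and 8.60 in control and 8.97 and 9.23 in treated tumours. In MTO93, Cdh1 was 8.94 and 8.67 in control and 8.81 and 8.49 in treated tumours. In MTO140, Cdh1 was 9.29 and 8.53 in control and 9.34 and 9.52 in treated tumours. Only the MTO140 groups of these lines were apart, and narrowly. In MTO54, Cdh1 was 9.30 and 8.55 in control and 8.83 and 8.96 in treated tumours. In MTO207, Cdh1 was 7.53 and 8.05 in control and 8.47 and 8.34 in treated tumours. The MTO54 treated tumours lay between the controls, and the MTO207 treated tumours lay above theirs. The Cdh1 difference over the 5 lines was 0.24 (SE 0.14, 95% interval -0.06 to 0.53, limma adjusted p = 0.690).

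**Figure D2:**
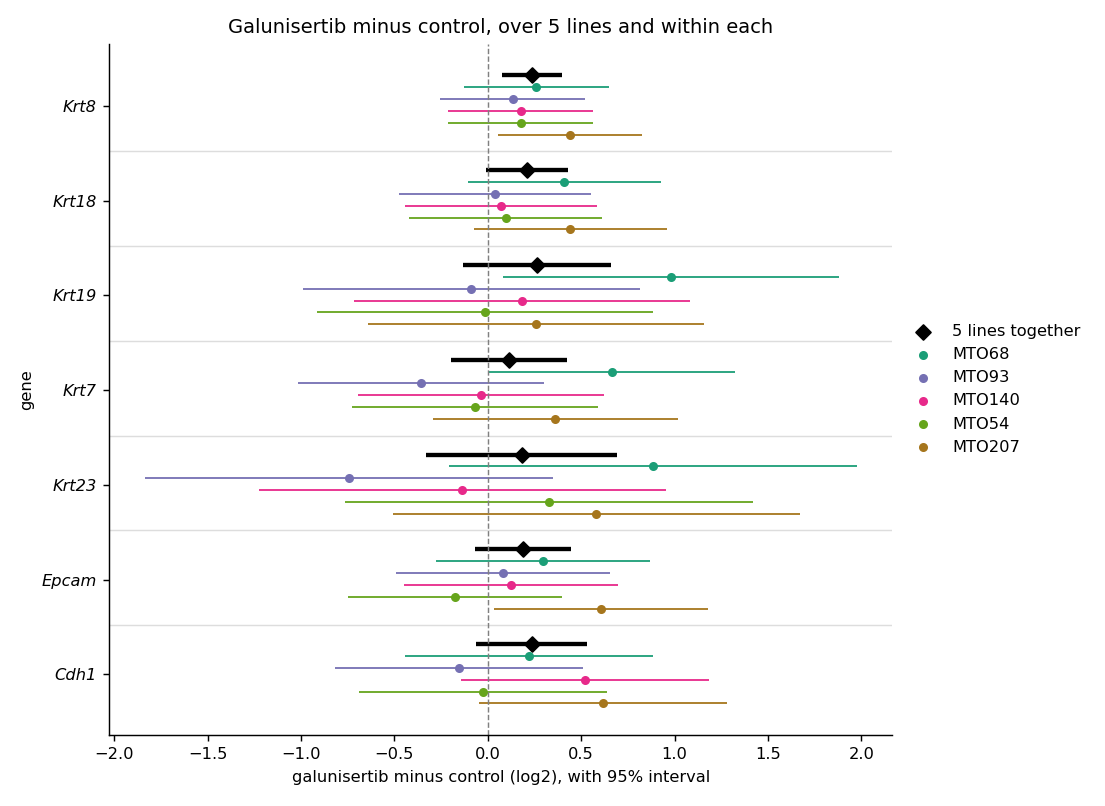
Galunisertib minus control on the log2 scale for the 7 genes, with 95% intervals from limma, over 5 lines together (black diamonds) and within each line (coloured points). The intervals over 5 lines include 0 for each gene except Krt8 (0.08 to 0.40) and are unadjusted for the number of genes tested.

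Within single lines 0 of the 7 passed in any of the 5. In MTO68 all 7 were higher under treatment, their median being 0.41 against 0.04 over all genes; 52.4% of all genes were higher and 2.01% passed. Krt19 at 0.98 (SE 0.42, limma adjusted p = 0.131) and Krt7 at 0.66 (SE 0.31, adjusted p = 0.148) had an unadjusted p under 0.05 there. Without MTO68 control replicate 2 these 2 differences were -0.04 and 0.20, that of Krt8 was 0.04 and that of Cdh1 -0.06, while Krt23 kept 0.67 and Krt18 0.15. Without that tumour Krt23 was the one gene of the 7 with an MTO68 difference above 0.20.

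In MTO207, the LAKT line, all 7 were again higher under treatment, their median being 0.44 against -0.03 over all genes, where 45.8% of all genes were higher and 0.0% passed. The differences were 0.44 for Krt8 (SE 0.18), 0.44 for Krt18 (SE 0.24), 0.61 for Epcam (SE 0.27) and 0.62 for Cdh1 (SE 0.31), each with a limma adjusted p of 0.646. Without MTO207 control replicate 1, which held the lowest Epcam and Cdh1 values, Epcam differed by 0.16, Krt8 by 0.25 and Cdh1 by 0.36, whereas Krt18 differed by 0.66 and Krt7 by 0.60. The array SD also split by treatment in MTO207, at 1.46 and 1.46 in control and 1.57 and 1.55 in treated tumours. With it as a covariate Krt19 turned to -0.23 in MTO207 and Krt7 fell to 0.06. Krt18 then differed by 0.24, Cdh1 by 0.31, Krt8 by 0.33, Epcam by 0.46 and Krt23 by 0.56.

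The other lines were near balance. In MTO140, the LiM line, 5 of 7 were higher, with a median of 0.13, while 51.1% of all genes were higher and 0.00643% passed. In MTO93, a LAKTP line, 3 of 7 were higher, with a median of -0.09, while 53.2% of all genes were higher and 0.0% passed. In MTO54, the LAKP line, 3 of 7 were higher, with a median of -0.01, again against 53.2% of all genes and with 0.0% passed. In MTO93 the keratin pair Krt8 and Krt18 differed by 0.13 and 0.04, while Krt23 at -0.74 (SE 0.51) and Krt7 at -0.36 (SE 0.31) had their lowest differences of any line.

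Whether the treatment difference itself varied between lines was tested by an F test over the 5 differences. None of the 7 passed, and 0.0643% of all genes did (10 genes, with 1345 at an unadjusted p under 0.05). The lowest limma adjusted p among the 7 were 0.574 for Krt7 and 0.587 for Krt23, whose treated tumours lay above both controls in MTO68 and MTO207 and below both in MTO93. Without MTO68 control replicate 1, which leaves the low tumour as the only MTO68 control, Krt19 passed (adjusted p = 0.00348).

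Levels were next compared between the organoid lines. Line, with 4 degrees of freedom, accounted for 40.6% of the sum of squares of Krt19 over the 20 tumours up to 61.0% for Cdh1, and treatment, with 1, for 1.34% for Krt23 up to 23.4% for Krt8. In the F test between lines, 6 of the 7 passed, against 55.4% of all genes tested. The limma adjusted p was 0.0102 for Cdh1, 0.0106 for Epcam, 0.0108 for Krt23, 0.0172 for Krt18, 0.0213 for Krt7 and 0.0343 for Krt8. Krt19 missed at 0.0687 and passed without MTO68 control replicate 2 at 0.00128. After quantile normalization of the deposited values 4 of the 7 passed. Cdh1, Epcam and Krt8 then missed (limma adjusted p 0.0743, 0.0805 and 0.0737), and Krt19 passed (0.0193). With its second probe set Epcam missed at 0.0515.

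The order of the lines was not the same for each gene. Mean ± SD over the 4 tumours of a line, treatments together, was highest for Krt8 in MTO140 at 11.53 ± 0.14, followed by MTO68 at 11.31 ± 0.23, MTO93 at 11.17 ± 0.11, MTO54 at 11.09 ± 0.17 and MTO207 at 11.06 ± 0.30. Of the neighbours in that order none differed, and the Krt8 calls were MTO140 over MTO207 by 0.46 and over MTO54 by 0.43. Epcam ran from 11.39 ± 0.23 in MTO140 through 10.98 ± 0.20 in MTO54, 10.88 ± 0.26 in MTO68 and 10.84 ± 0.08 in MTO93 to 10.40 ± 0.52 in MTO207. Its calls were MTO140 over MTO207 by 0.99 and over MTO93 by 0.55, and MTO68 over MTO207 by 0.48. With the second Epcam probe set MTO140 over MTO93 (limma adjusted p = 0.259) and MTO68 over MTO207 (0.0717) missed. Both also missed after quantile normalization (0.203 and 0.659). Cdh1 ran from 9.17 ± 0.44 in MTO140 through 8.99 ± 0.28 in MTO68, 8.91 ± 0.31 in MTO54 and 8.73 ± 0.19 in MTO93 to 8.10 ± 0.42 in MTO207. MTO140 and MTO68 exceeded MTO207 in Cdh1 by 1.07 and 0.89. These 3 genes thus had their highest mean in the LiM line and their lowest in the LAKT line.

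The remaining keratins followed other orders. Krt18 was highest in MTO68 at 11.04 ± 0.32, followed by 10.90 ± 0.09 in MTO54, 10.82 ± 0.27 in MTO140, 10.49 ± 0.31 in MTO207 and 10.35 ± 0.22 in MTO93, and MTO68 exceeded MTO93 by 0.69 and MTO207 by 0.55. Krt7 was highest in MTO54, the LAKP line, at 11.42 ± 0.32, followed by 10.97 ± 0.29 in MTO207, 10.97 ± 0.27 in MTO140, 10.61 ± 0.54 in MTO68 and 10.54 ± 0.23 in MTO93. The Krt7 call was MTO54 over MTO68 (MTO68 minus MTO54 was -0.81). Krt23 was lowest in that same line at 6.94 ± 0.92 and highest in MTO68 at 8.77 ± 0.64, with 8.00 ± 0.24 in MTO140, 7.70 ± 0.52 in MTO93 and 7.53 ± 0.35 in MTO207. MTO68 exceeded MTO54 in Krt23 by 1.83, MTO207 by 1.24 and MTO93 by 1.06. Krt19 ran from 11.66 ± 0.18 in MTO140 through 11.35 ± 0.06 in MTO54, 11.17 ± 0.18 in MTO207 and 10.94 ± 0.20 in MTO93 to 10.66 ± 1.01 in MTO68, where the low control tumour lies. Its call was MTO68 below MTO140 (MTO68 minus MTO140 was -0.99, and -0.48 with a limma adjusted p of 0.0153 without MTO68 control replicate 2).

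Over the 10 pairs of lines, 14 of 70 comparisons of the 7 genes passed in limma, and 7 to 23 did without single tumours (7 without MTO68 galunisertib replicate 1, and 23 without MTO68 control replicate 1 or 2). Between MTO140 and MTO207, 3 of 7 passed, against 49.7% of all genes. Between MTO68 and MTO207, 4 of 7 passed, against 48.2%. Between MTO68 and MTO93, 2 of 7 passed, against 33.4%, and between MTO68 and MTO54, 2 of 7 passed, against 17.0%. Between MTO93 and MTO140, 1 of 7 passed, against 27.8%, between MTO68 and MTO140, 1 of 7 passed, against 14.3%, and between MTO140 and MTO54, 1 of 7 passed, against 10.5%. None of the 7 passed between MTO54 and MTO207 (1.27% of all genes), MTO93 and MTO54 (0.617%) or MTO93 and MTO207 (0.0257%). The shares of the 7 genes were thus near those of all genes in the pairs with most calls.

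Levels were also set against the SD of the values of an array, a measure examined after the data were seen. Over 20 tumours Pearson's r with the array SD was 0.80 for Cdh1 (Spearman's rho 0.82), 0.79 for Krt18 (rho 0.80), 0.71 for Epcam (rho 0.76), 0.69 for Krt8 (rho 0.71) and 0.52 for Krt19 (rho 0.55), each past an adjusted permutation p of 0.05 over the 7 relations (7e-05, 7e-05, 0.00035, 0.00126 and 0.0115 for r). For Krt7 r was 0.38 (adjusted permutation p = 0.0983) and rho 0.33 (adjusted permutation p = 0.153). For Krt23 r was 0.44 (adjusted permutation p = 0.0634) and rho 0.50, which passed (adjusted permutation p = 0.031). With each line centred on its mean, and permuted within lines, r was 0.85 for Krt19, 0.80 for Krt7, 0.74 for Krt18, 0.66 for Cdh1 and 0.55 for Epcam (past 0.05), and 0.56 for Krt8 and 0.32 for Krt23 (not past it). The sign was not the same in every line, since over the 4 tumours of MTO93 r was -0.92 for Epcam, -0.84 for Krt19 and -0.81 for Krt8, and with groups centred 0 of the 7 passed (adjusted permutation p 0.151 to 0.882). The line-centred r of Krt19 leaned on MTO68, where its SD was 1.01 against 0.06 to 0.20 in the other lines. Line-centred values without MTO68 control replicate 2 were not computed. As a limma covariate the array SD was taken over the 17097 genes measured, rather than over all probe sets as for the correlations. Under that covariate the treatment difference over 5 lines was 0.20 for Krt8 (SE 0.07), 0.13 for Krt18, Cdh1 0.13, Epcam 0.11, Krt23 0.10, Krt19 0.06 and Krt7 -0.03. With it, 3 of 7 rather than 6 of 7 passed between lines, namely Krt7, Krt19 and Krt23, while the count over all genes went from 8611 to 4324 of 15556, and Cdh1, Epcam, Krt18 and Krt8 no longer passed (limma adjusted p 0.134, 0.138, 0.129 and 0.243). What the array SD stands for in these tumours was not tested.

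**Figure D3:**
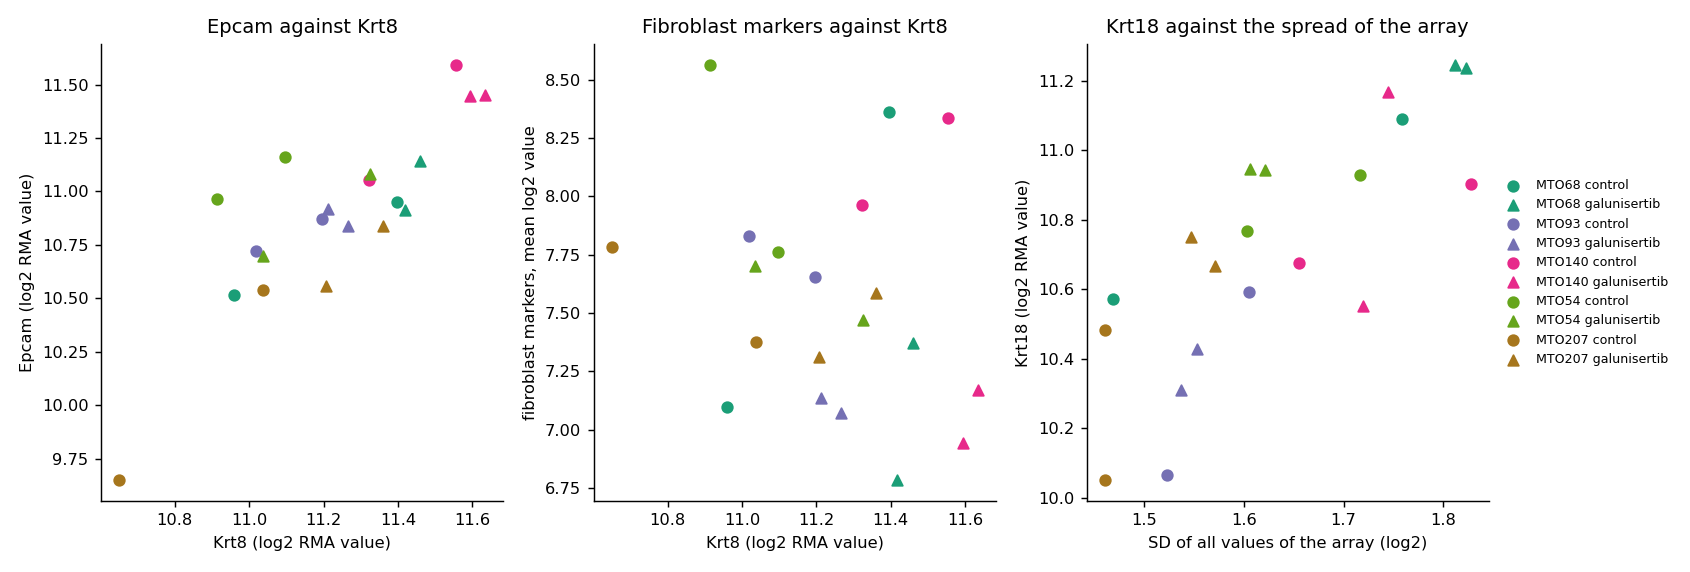
Each point is a tumour, coloured by line, with circles for control and triangles for galunisertib. The panels plot Epcam against Krt8 (log2 values, r = 0.83), the mean log2 value of 14 fibroblast markers against Krt8 (r = -0.24), and Krt18 against the SD of all values of the array (r = 0.79).

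Whether the 7 genes moved together was asked by correlating each pair over the 20 tumours, with 28 relations in all counting those with the mean of the fibroblast markers. Of the 21 pairs of the 7 genes, 18 had a positive r and the median r was 0.39; with lines centred, 20 were positive and the median was 0.46. After adjustment 4 of the 28 relations passed. Krt8 with Epcam had r = 0.83 (permutation p = 1e-05, the smallest 100000 permutations can give, adjusted 0.00028) and rho = 0.72 (p = 0.00065, adjusted 0.00938), with r = 0.71 without the 2 tumours farthest from the median. It was the one pair to pass also with lines centred (r = 0.87, permutation p adjusted 0.0101). Epcam with Cdh1 had r = 0.82 (permutation p = 2e-05, adjusted 0.00028) and rho = 0.67 (p = 0.00173, adjusted 0.0162), with r = 0.66 without the 2 farthest tumours and r = 0.64 with lines centred (adjusted 0.0839). Over the 4 tumours of single lines, r of Epcam with Cdh1 was positive in 3 lines, -0.94 in MTO93 and -0.50 in MTO54. That of Krt8 with Epcam was positive in 5 of 5.

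The other pairs that passed leaned on few tumours. Krt8 with Cdh1 had r = 0.67 (permutation p = 0.00121, adjusted 0.0113) and rho = 0.52 (p = 0.0194, adjusted 0.0605), but r = 0.40 without the 2 farthest tumours. Within single lines r of Krt8 with Cdh1 was positive in 3 lines, -0.58 in MTO93 and -0.57 in MTO54. Krt19 with Krt7 had r = 0.68 (permutation p = 0.00182, adjusted 0.0127) and rho = 0.63 (p = 0.0039, adjusted 0.0273), but r = 0.40 without the 2 farthest tumours and 0.44 without MTO68 control replicate 2. With lines centred and tumours permuted within lines, Krt18 with Krt7 (r = 0.80, adjusted 0.0101), Krt8 with Krt19 (r = 0.65, adjusted 0.0119) and Krt19 with Epcam (r = 0.52, adjusted 0.0101) passed beside Krt8 with Epcam. The line-centred Krt19 pairs leaned on the wide spread of Krt19 in MTO68, and were not computed without MTO68 control replicate 2. Without that tumour the uncentred r was 0.58 for Krt8 with Krt19 and 0.65 for Krt19 with Epcam. Centred on each group of 2 tumours, where only replicate differences are left, 0 of the 28 passed, although r was 0.92 for Krt8 with Epcam (permutation p = 0.00615, adjusted 0.172) and 0.80 for Krt18 with Krt7 (p = 0.0546, adjusted 0.382).

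Krt8 and Krt18, which pair in filaments, were close to the median of the 21 pairs, with r = 0.41 (permutation p = 0.0753, adjusted 0.192), rho = 0.42 and r = 0.40 with lines centred. The negative pairs were Krt7 with Krt23 (r = -0.32), Krt19 with Krt23 (r = -0.06) and Krt7 with Krt8 (r = -0.01), none past the threshold. None of the 7 genes was related to the fibroblast markers past the threshold, with r from -0.34 for Krt23 and -0.24 for Krt8 to 0.43 for Krt7 (adjusted permutation p 0.287, 0.433 and 0.157). With groups centred, r with these markers was 0.72 for Krt19, 0.71 for Krt7, 0.66 for Cdh1 and 0.50 for Krt18. It was 0.23 for Krt8, 0.15 for Epcam and -0.36 for Krt23, and none of these passed either. The group-centred r of Krt19 rested largely on the MTO68 controls, at 11.19 and 9.15 for Krt19 and 8.36 and 7.10 for the fibroblast mean. Group-centred values without MTO68 control replicate 2 were not computed.

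**Figure D4:**
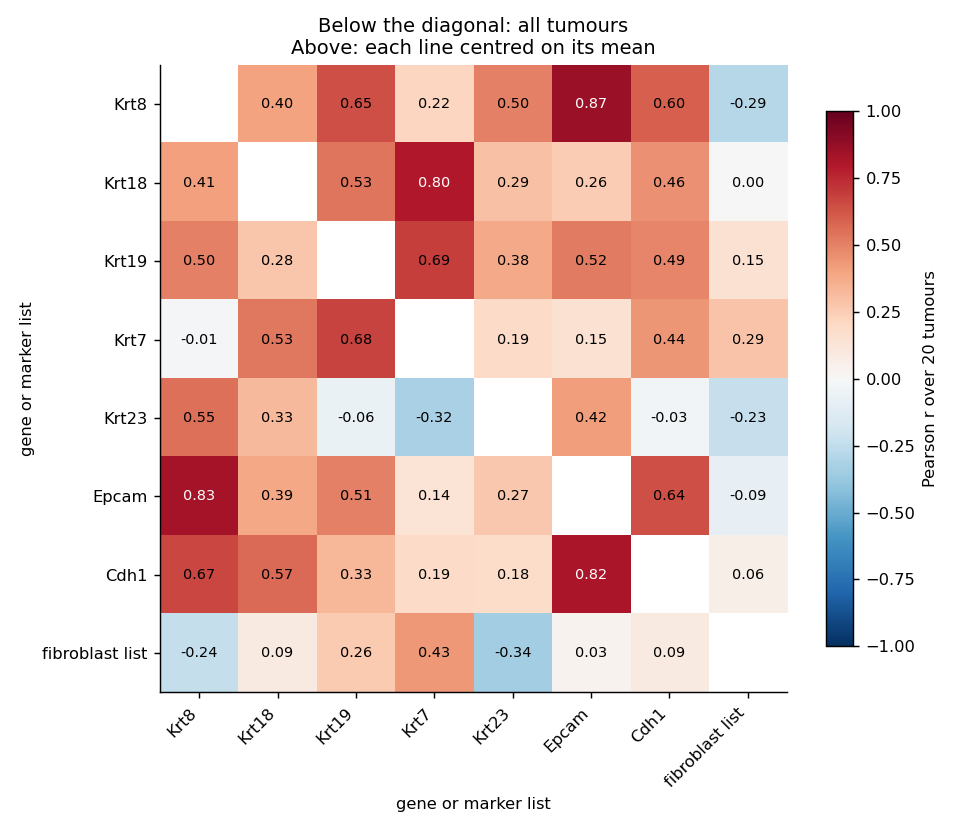
Pearson's r between the 7 genes and the mean of the fibroblast marker list over 20 tumours, on the values as they are (below the diagonal) and with each line centred on its mean (above it). Krt8 with Epcam is the strongest pair on both sides (0.83 and 0.87), and the fibroblast list stays between -0.34 and 0.43.

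Genes whose values over the 20 tumours were most like each of the 7 were sought as a description. The 7 themselves and provisional symbols, such as those of the Gm, BC or Rik type, were passed over. Named for each were the 3 remaining tested genes with the highest r. For Krt8 they were Atp5d (r = 0.94), Cldn3 (0.94), a claudin of tight junctions, and Cox5a (0.93). For Krt18 they were Rpl7l1 (r = 0.94), Psmc4 (0.94) and Eif4a3 (0.94). For Krt19 they were Anxa2 (r = 0.93), Ctnna1 (0.92), the alpha-catenin that links cadherins to actin, and Prelid1 (0.90). The 3 genes of Krt8 kept r of 0.93 to 0.95 with lines centred, and those of Krt19 kept 0.87 to 0.94. The ranges were 0.89 to 0.90 for Krt18, 0.82 to 0.91 for Krt7, 0.73 to 0.84 for Krt23, 0.81 to 0.86 for Epcam and 0.77 to 0.84 for Cdh1. For Krt7 they were Rap2b (r = 0.91), Dusp4 (0.90) and Wnk1 (0.89), and for Krt23 Gpc4 (r = 0.92), Lrch1 (0.88) and Bace2 (0.88). For Epcam they were Stap2 (r = 0.92), Glrx5 (0.91) and Ap1ar (0.90), and for Cdh1 Zc3h15 (r = 0.91), Rrbp1 (0.90) and Tars2 (0.89). No gene was among the 3 of more than 1 of the 7.

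Genes that work with keratins and E-cadherin were set beside the 7, as lists described by counts and medians over the 5 lines. None of the lists held a gene past the limma adjusted threshold, against 0.0% of all genes. Of 11 keratin linkers and cadherin partners (catenins, desmosomal genes and plakins), 10 were higher under treatment (median 0.16); Jup, which encodes plakoglobin, differed by 0.40 (SE 0.18) and Dsc2, a desmosomal cadherin, by 0.58 (SE 0.31), with limma adjusted p of 0.625 and 0.665. By line, 11 of the 11 were higher in MTO68 and MTO207, 10 in MTO54, 7 in MTO140 and 1 in MTO93 (median -0.17). With the array SD as a covariate 7 of the 11 were higher over the 5 lines. Of 22 other epithelial genes, 21 were higher, with a median of 0.30 and 11 at an unadjusted p under 0.05; Marveld3, a tight junction gene, differed by 0.53 (SE 0.16) and Spint2, an inhibitor of membrane serine proteases, by 0.32 (SE 0.10), with limma adjusted p of 0.343 and 0.351. That list gave 20 to 22 of 22 higher under median centring, quantile normalization, the array SD covariate and the omission of MTO68 control replicate 2, with medians of 0.19 to 0.32. Of 11 colonocyte differentiation genes, 11 were higher over the 5 lines, with a median of 0.57, but 3 of 11 in MTO68, with a median of -0.21; the chloride exchanger Slc26a3 differed by 1.20 (SE 0.56) and the microvillar cadherin Cdhr5 by 0.57 (SE 0.29), with limma adjusted p of 0.625 and 0.655.

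Of 8 genes that repress E-cadherin or mark mesenchyme, 8 were lower over the 5 lines (median -0.22), as they were under each of the same alternatives. By line, 4 of the 8 were higher in MTO207 (median 0.02), 3 in MTO93 (-0.01) and 2 in MTO54 (-0.10). None was higher in MTO68 (-0.29) or MTO140 (-0.45). The N-cadherin gene Cdh2 differed by -0.22 (SE 0.07) and Snai1, which encodes a repressor of Cdh1, by -0.22 (SE 0.07), with limma adjusted p of 0.343 and 0.408 and both near the detection floor at control means of 4.39 and 4.48. Of 9 keratins of squamous and basal epithelia, 3 were higher, with a median of -0.06; Krt4 differed by 0.71 (SE 0.36) and Krt13 by -0.16 (SE 0.12), with limma adjusted p of 0.655 and 0.722.

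**Figure D5:**
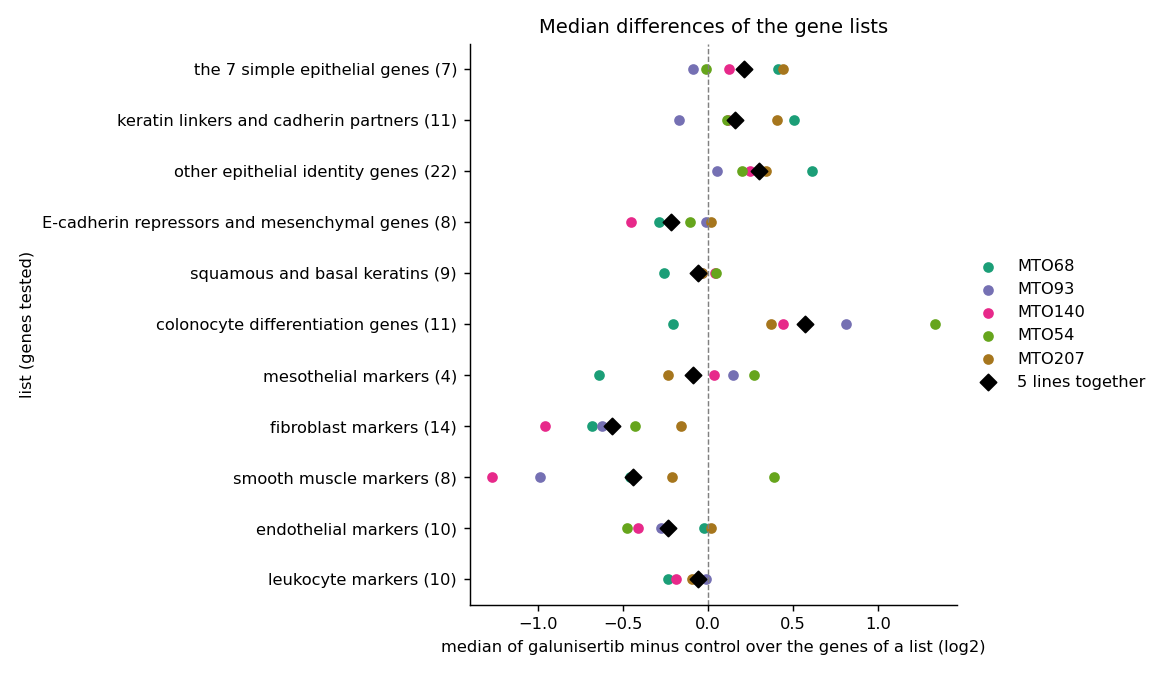
Median of galunisertib minus control (log2) over the genes of each list, over 5 lines together (black diamonds) and within each line (coloured points); the number of genes tested is in parentheses. The 7 simple epithelial genes have a median of 0.21 over 5 lines and run from -0.09 in MTO93 to 0.44 in MTO207, and fibroblast markers have a median of -0.57.

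Markers of the other cells in the fragments were measured in the same tumours. Of 14 fibroblast markers, 14 were lower under treatment (median -0.57), and their mean level ranged from 7.10 to 8.56 in control and from 6.78 to 7.70 in treated tumours. The collagen genes Col3a1 and Col1a1 differed by -0.62 (SE 0.14) and -0.74 (SE 0.19), with limma adjusted p of 0.158 and 0.222, and Pdgfra was below the detection floor. Of 8 smooth muscle markers, 8 were lower over the 5 lines, although 8 of 8 were higher in MTO54 (median 0.39), with a median of -0.44 and a mean level of 6.60 to 8.01 in control and 6.21 to 8.03 in treated tumours; Des, which encodes the muscle filament desmin, differed by -0.45 (SE 0.19) and Lmod1 by -0.18 (SE 0.07). Of 10 endothelial markers, 9 were lower, with a median of -0.24 and a mean level of 5.63 to 6.91 in control and 5.59 to 6.31 in treated tumours; Plvap differed by -0.22 (SE 0.06) and Emcn by -0.34 (SE 0.11).

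Leukocyte markers were close to balance, with 4 of 10 higher, a median of -0.06 and a mean level of 6.45 to 7.83 in control and 6.52 to 7.49 in treated tumours; Itgam differed by -0.25 (SE 0.14) and Csf1r by -0.21 (SE 0.15). Mesothelium covers the caecum and makes simple keratins itself. Of its 7 markers Wt1, Gpm6a and Bnc1 were below the detection floor, and Upk3b was measured at a median of 7.03 over the tumours. The 4 tested, among them Msln at -0.21 (SE 0.17) and Upk1b at -0.10 (SE 0.14), were lower under treatment over the 5 lines (median -0.09), with a mean level of 5.03 to 5.89 in control and 4.48 to 5.88 in treated tumours, and 3 of 4 higher once the array SD was a covariate. Within lines, 3 of the 4 were higher in MTO93 (median 0.15) and MTO54 (0.27), 2 in MTO140 (0.04) and 1 in MTO207 (-0.23). In MTO68 0 of the 4 were higher (-0.64), and without MTO68 control replicate 2 the median over the 5 lines was -0.02. By line, the medians of the 7 genes and of the fibroblast markers were 0.41 and -0.69 in MTO68, -0.09 and -0.62 in MTO93, 0.13 and -0.96 in MTO140, -0.01 and -0.43 in MTO54, and 0.44 and -0.16 in MTO207. The part of fibroblasts and other cells in the differences of the 7 genes was not tested.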

How the data were processed

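Each of 20 whole tumour fragments was hybridised to an array of its own. The deposited log2 values per probe set come from RMA in affy, according to the submitters' processing notes (per the labels), with no version stated there. RMA subtracts background and equalises the distribution of probe values between arrays, so a difference in total RNA content is removed. Of 45141 probe sets, 28898 had a single symbol, 551 several, 15588 none and 104 were controls, and 28689 were matched by Entrez ID. For each gene the probe set of highest mean was used, and genes above 4.16, the 25th percentile, on at least 2 arrays were tested.

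The limma package (version 3.58.1, R 4.3.3) gave differences and moderated tests (lmFit, then eBayes with its trend option), with line as a block over 5 lines, and otherwise with 10 group means and a shared spread. All tests were two-sided, and p-values were adjusted by Benjamini-Hochberg over the 15556 genes at 0.05, and scripts were tested on simulated data. The design text calls the 2 tumours of a group biological replicates; replicate numbers follow accession order and pair nothing. Relations used 100000 permutations. The 2 tested genes of smallest p were named from each list, and a few list genes are not analysed here. The members and lists were chosen with earlier results of these data known. Alternatives were filters, probe sets, scalings, variance models, array weights and omissions. The array SD covariate, the relations without MTO68 control replicate 2 and the settings for lists were added after seeing the data. That SD was taken over the genes measured in limma, and over all probe sets in the settings for lists.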

Additional observations from a re-analysis of the deposited data

Results flagged for a closer look

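Krt19 in control tumours had its lowest value, 9.15, in MTO68 control replicate 2, and the next lowest was 10.75. The gap was 0.617 of the whole range of the 10 control tumours, above Dixon's 95% critical value for 10 values. It was the only one of 14 sets of 10 tumours checked (7 genes, 2 treatments) to exceed it, where about 1 in 20, or 0.7 of 14, would do so by chance.

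Krt7 was higher in both treated tumours than in both controls of MTO68 and lower in both of MTO93, with mean differences of 0.66 and -0.36 that lie 1.02 apart. Krt7 was likewise higher in MTO207, by 0.36, which is 0.72 above MTO93. Krt23 was higher in MTO68 and lower in MTO93, with differences of 0.88 and -0.74 that lie 1.63 apart, and higher in MTO207, by 0.58, which is 1.33 above MTO93. These contrasts between pairs of lines were not tested on their own, and the limma F test over the 5 lines gave adjusted p of 0.574 for Krt7 and 0.587 for Krt23. Groups of 2 tumours are often apart by chance alone, and the share of all genes so separated was not computed.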

How the results depend on the processing

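None of the 7 genes passed over 5 lines under any of the 36 alternatives, and the limma adjusted p of Krt8 ranged from 0.150 to 0.829. The direction over 5 lines stayed positive in all alternatives run for Krt8, Krt18, Krt19, Epcam and Cdh1. The Krt7 difference over 5 lines reversed to -0.0225 after quantile normalization, -0.0326 with the array SD as a covariate and -0.0257 without line MTO68, and Krt23 reversed to -0.10 with array weights. Without single tumours, the genes passing within MTO68 numbered 0 to 4 and those passing the test of different effects 0 to 1, the highest counts without MTO68 control replicate 1; 4 to 7 passed between lines and 7 to 23 of 70 passed over pairs of lines. With the array SD as a covariate 3 passed between lines and 8 of 70 over pairs, and after quantile normalization 4 passed between lines. Of the 28 relations 0 passed with groups centred, where r was 0.92 for Krt8 with Epcam and 0.80 for Krt18 with Krt7. The cause of these shifts was not tested. No paired analysis was possible because the labels number no replicates and same-numbered tumours share only accession order.

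The numbers of all genes passing were less stable. Over 5 lines 0 became 43 without MTO68 control replicate 2 and 167 with the array SD as a covariate. Within MTO68, 312 became 40 without that tumour and 8323 without MTO68 control replicate 1. For different effects 10 became 0 with array weights and 2807 without MTO68 control replicate 1. Within MTO140, 1 became 26 without MTO140 galunisertib replicate 1, and within MTO207, 0 became 144 with array weights; MTO93 and MTO54 gave at most 4 and 9. Between lines, 8611 became 4324 with the array SD as a covariate, and between MTO140 and MTO207, 7729 became 23 with it.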
